A study of Mus musculus with 15 samples.

Results

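Among 10 newborn mouse cerebella labelled as carrying the Math1-Cre transgene, 5 had a low signal in the array row annotated to Gsk3a, the gene of glycogen synthase kinase 3 alpha, and 5 had a high one. The row is shared with 9130221H12Rik, a second symbol on the same probes. Libraries below 9.0 on the log2 scale are called row-low here; they are those labelled DKO 2, DKO 4, DKO 5, Math1-Cre 1 and Math1-Cre 2. Libraries at or above 9.0 are called row-high and are those labelled DKO 1, DKO 3, Math1-Cre 3, Math1-Cre 4 and Math1-Cre 5. The 10 libraries were drawn from 15 in the study, and the other 5 are no-Cre controls. In the row-low libraries, feedback genes of the WNT pathway such as Wif1, Notum, Lef1 and Axin2 lay higher, as did the cell death gene Pmaip1, while the nicotinic receptor subunit genes Chrna3 and Chrnb4 and genes of the cell cycle such as Mki67 and Mcm3 lay lower. The sets follow the measured row and not the label. The conflict between the row and the label is unresolved in 4 libraries, DKO 1, DKO 3, Math1-Cre 1 and Math1-Cre 2. The libraries of each set were chosen by their values in that row, so differences between them are given as a description with no test.

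The mice were C57BL/6 pups, given as postnatal day 1 in one label field and day 2 in another. Per the labels, libraries named DKO have both isoforms, Gsk-3 alpha and Gsk-3 beta, deleted in cerebellar granule neuron progenitors. Libraries named Math1-Cre control carry floxed Gsk3b alleles, deleted by the Cre in the same progenitors, and 1 altered Gsk3a allele. Libraries named no-Cre control are described as Gsk-3 intact; they also carry 1 altered Gsk3a allele and, apart from replicate 5, whose description leaves it out, the floxed Gsk3b alleles. Math1 is the older name of Atoh1, a gene of granule neuron progenitors and of other cells of the rhombic lip, so other cell types of these cerebella keep their alleles under this Cre. Each library is described as whole cerebella of 1 replicate, and whether tissue of several pups was combined is not given in the labels. The series' design text adds that progenitors were enriched on a density gradient before RNA was isolated. In such bulk RNA, fewer cells of a type and less RNA per cell cannot be told apart.

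Glycogen synthase kinase 3 alpha and beta are closely related kinases encoded by separate genes. With APC, AXIN and casein kinase 1 they form the destruction complex, which marks beta-catenin for degradation; when the complex is inactive, beta-catenin enters the nucleus and joins TCF and LEF factors on target genes. Many of those targets encode inhibitors of the pathway itself, so their RNA is commonly read as a measure of pathway activity. In the newborn cerebellum, granule neuron progenitors divide in the external granule layer under Sonic hedgehog signalling before they leave the cell cycle and migrate inward. The kinases also phosphorylate regulators of that programme, among them the proteins of the Myc and Gli families.

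Each library was measured on 1 array. The deposited values are log2 expression, so a difference of 1 is a factor of 2. A level is called at background where it is at or below the 90th percentile of 1394 olfactory and vomeronasal receptor genes on the same array. The arrays of DKO 3, DKO 4, DKO 5 and no-Cre 4 had the narrowest spread of values, with interquartile ranges of 3.43 to 3.56 against 3.73 to 3.85 on the others, and their receptor genes read higher. Of these, DKO 4 and DKO 5 are row-low and DKO 3 is row-high. The library labelled Math1-Cre 1 stands apart in another way: it read 11.96 in Xist, a transcript of the inactive X chromosome of females, and also 9.03 in the Y-linked gene Eif2s3y, 8.46 in Kdm5d and 8.67 in Uty. No other library had high levels of both kinds. Y-linked genes were expressed in 3 row-low libraries, 1 row-high library and 2 no-Cre libraries, and the part of sex in the results below was not tested. The descriptions of the 3 replicate-5 libraries share a code whose meaning is not given.

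The row annotated to Gsk3a read 8.22 in DKO 2, 7.89 in DKO 4, 8.27 in DKO 5, 8.25 in Math1-Cre 1 and 8.03 in Math1-Cre 2. In the row-high libraries it read 9.47 in DKO 1, 9.37 in DKO 3, 9.48 in Math1-Cre 3, 9.50 in Math1-Cre 4 and 9.51 in Math1-Cre 5. The no-Cre libraries 1 to 5 read 9.42, 9.52, 9.59, 9.42 and 9.57. Nothing lay between 8.27 in DKO 5, just inside the threshold of 9.0, and 9.37 in DKO 3, just outside it, a gap of 1.10. All row-high libraries except DKO 3 lay within the no-Cre range. The medians of the row-low and row-high libraries differed by -1.25. Gsk3b, the gene of the other isoform, showed no such split. It ranged from 10.59 to 10.98 in the row-low libraries, from 10.76 to 10.93 in the row-high libraries and from 10.61 to 10.84 in the no-Cre libraries. Probes spread over a transcript may lie outside the deleted part, so neither row gives a genotype. Ctnnb1, which encodes beta-catenin, also overlapped between the sets, with medians of 10.84 and 10.80.

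**Figure D1:**
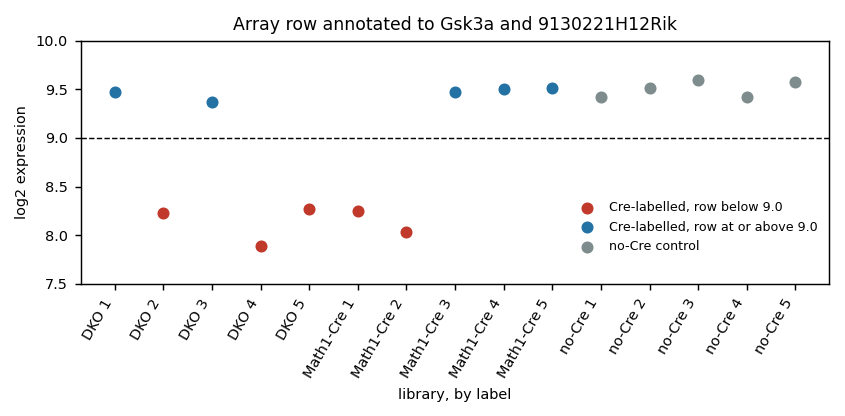
Level of the array row annotated to Gsk3a and 9130221H12Rik, on the log2 scale, in each of the 15 libraries, ordered along the horizontal axis by label; each point is 1 library and the dashed line is the threshold of 9.0. The 5 row-low libraries, in red, lie between 7.89 and 8.27, and the row-high and no-Cre libraries lie between 9.37 and 9.59.

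Wif1, which encodes a secreted protein that binds WNT ligands and keeps them from their receptors, had the greatest difference of medians among genes that did not overlap, 3.70, or 13.0-fold. It read 9.62, 9.81, 9.44, 9.53 and 9.36 in the row-low libraries DKO 2, DKO 4, DKO 5, Math1-Cre 1 and Math1-Cre 2, the order kept throughout. It read 5.70, 6.24, 6.20, 5.65 and 5.83 in the row-high libraries DKO 1, DKO 3, Math1-Cre 3, Math1-Cre 4 and Math1-Cre 5, again in a fixed order. The no-Cre libraries read 5.87, 6.28, 5.83, 5.48 and 5.86 and lay among the row-high libraries. The lowest row-low library was 3.12 above the highest row-high library.

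Notum, a secreted enzyme that removes the lipid from WNT ligands, read 6.07, 6.23, 5.69, 6.31 and 6.36 in the row-low libraries. It read 3.57, 3.09, 3.35, 3.38 and 3.61 in the row-high libraries, all at background, and 3.50, 3.33, 3.42, 3.57 and 3.32 in the no-Cre libraries. Its difference of medians was 2.85. Since background compresses differences, this value is not a measure of how far Notum lay below. A second array row of Notum, of low signal, differed by 0.09 and overlapped.

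Axin2 encodes a scaffold of the destruction complex and is a direct target of beta-catenin. It read 8.28, 8.52, 8.18, 8.20 and 8.14 in the row-low libraries and 6.99, 6.86, 6.99, 6.87 and 7.12 in the row-high libraries, a difference of medians of 1.21. The no-Cre libraries read 7.14, 7.07, 7.02, 7.02 and 6.98 and overlapped the row-high range. Its second row, at a lower signal, differed by 0.51 without overlap. Lef1, the transcription factor that recruits beta-catenin to DNA, read 9.00, 8.86, 8.65, 8.73 and 8.62 in the row-low libraries. It read 6.76, 6.54, 6.73, 6.84 and 7.31 in the row-high libraries, of which Math1-Cre 5 was the highest, and 7.12, 7.15, 6.80, 6.67 and 6.85 in the no-Cre libraries. The Lef1 medians of the sets differed by 1.97.

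Pmaip1 encodes Noxa, a BH3-only protein that promotes cell death by binding anti-apoptotic members of the BCL2 family. It read 6.39, 7.63, 6.90, 7.29 and 7.17 in the row-low libraries. It read 3.48, 3.53, 3.63, 3.92 and 4.38 in the row-high libraries and 3.79, 3.96, 3.56, 3.72 and 4.00 in the no-Cre libraries, and the row-high levels were all at background. The difference of medians was 3.53. These 5 genes were known to split in this way when the sets were proposed, so they check the sets and add no support for them.

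**Figure D2:**
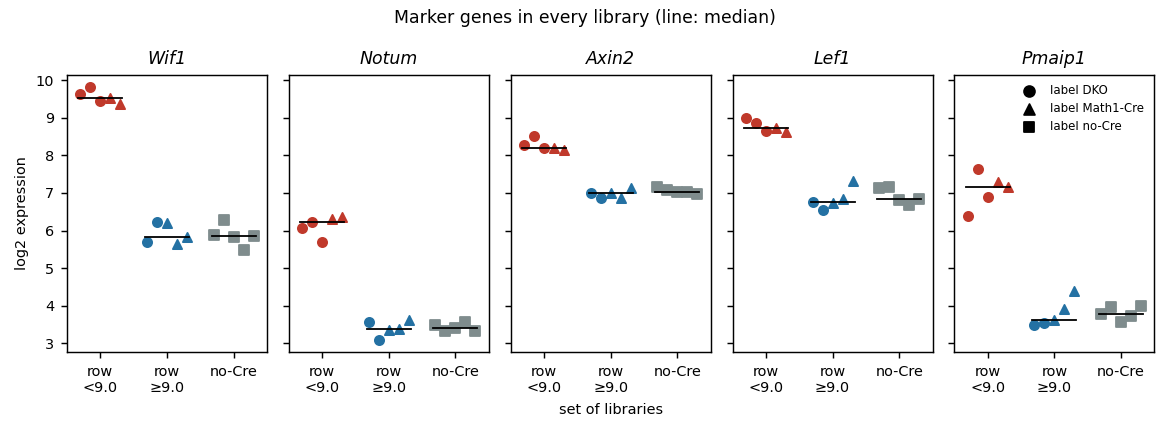
Log2 expression of Wif1, Notum, Axin2, Lef1 and Pmaip1 in every library, with the libraries grouped along the horizontal axis as row-low, row-high and no-Cre; circles are labelled DKO, triangles Math1-Cre and squares no-Cre, and lines are medians of 5 libraries. In each panel the row-low libraries of both labels lie above all others, and the row-high libraries lie beside the no-Cre libraries.

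The groups as labelled overlapped in each of these 5 genes, which must be so because each set holds libraries of both labels. The labelled comparison, DKO minus Math1-Cre, uses no value of the Gsk3a row and was tested with limma over 22180 genes. Nothing in the labels says that the libraries of a group come from separate litters, so its p-values rest on how these samples vary, which may be technical. Wif1 differed by 0.85 ± 0.90 (SE; limma adjusted p = 0.589) and Axin2 by 0.30 ± 0.33 (limma adjusted p = 0.596). Notum differed by 0.33 ± 0.69 (limma adjusted p = 0.797), Lef1 by 0.32 ± 0.50 (limma adjusted p = 0.724) and Pmaip1 by 0.30 ± 0.85 (limma adjusted p = 0.849). For each of the 5 genes the standard error was larger than the difference. Genes that separate the sets spread widely within each label, so this outcome was largely fixed by the sets. Over all genes 122 passed, which is 0.55%, with 29 higher (0.131%) and 93 lower (0.419%) in the libraries labelled DKO. The threshold was an adjusted p of 0.05. When single libraries were left out, that count ranged from 0 to 402. Of the 69 genes named by rule, 0 passed, and 2 had an unadjusted limma p under 0.05.

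Over all genes, 56 of 22180 (0.252%) had no overlap between the row-low and row-high libraries and medians at least 1 apart. Of these, 48 (0.216%) were higher in the row-low libraries and 8 (0.0361%) were lower. Without a minimum difference, 619 genes (2.79%) did not overlap, 219 higher (0.987%) and 400 lower (1.8%). The median difference over all genes was -0.009. The large differences therefore lay mostly upward and the small ones mostly downward: 16 genes were at least 2 higher and 0 at least 2 lower. Of the 48 higher genes, 19 were at background in all 5 row-high libraries and 20 in none of them. Some were at background in row-low libraries too. Prcd and Ankrd33b were so in all 5 libraries of each set, and Spo11 and Gna14 in 4 row-low libraries. None of the 56 genes passed the limma test of the labels, and 0 had an unadjusted p under 0.05. Each set holds libraries of both labels, so genes chosen to separate the sets spread widely within each label. That outcome was thus largely fixed by the choice of genes. Without Math1-Cre 1, the library with both Xist and Y-linked expression, 53 genes were counted, 46 higher and 7 lower, and 50 of the 56 were among them.

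The no-Cre libraries, which took no part in forming the sets, give a reference level for these 56 genes. The row-high libraries overlapped the no-Cre libraries in all 56, and the row-low libraries overlapped them in 2, the glycine receptor gene Glra1 and the microRNA gene Mir130a. Over all genes the row-high libraries did not overlap the no-Cre libraries in 91 genes (0.41%) and the row-low libraries in 663 genes (2.99%). Both shares are counts of non-overlap between 5 and 5 libraries. The plot of the 30 genes farthest apart shows the same arrangement library by library.

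**Figure D3:**
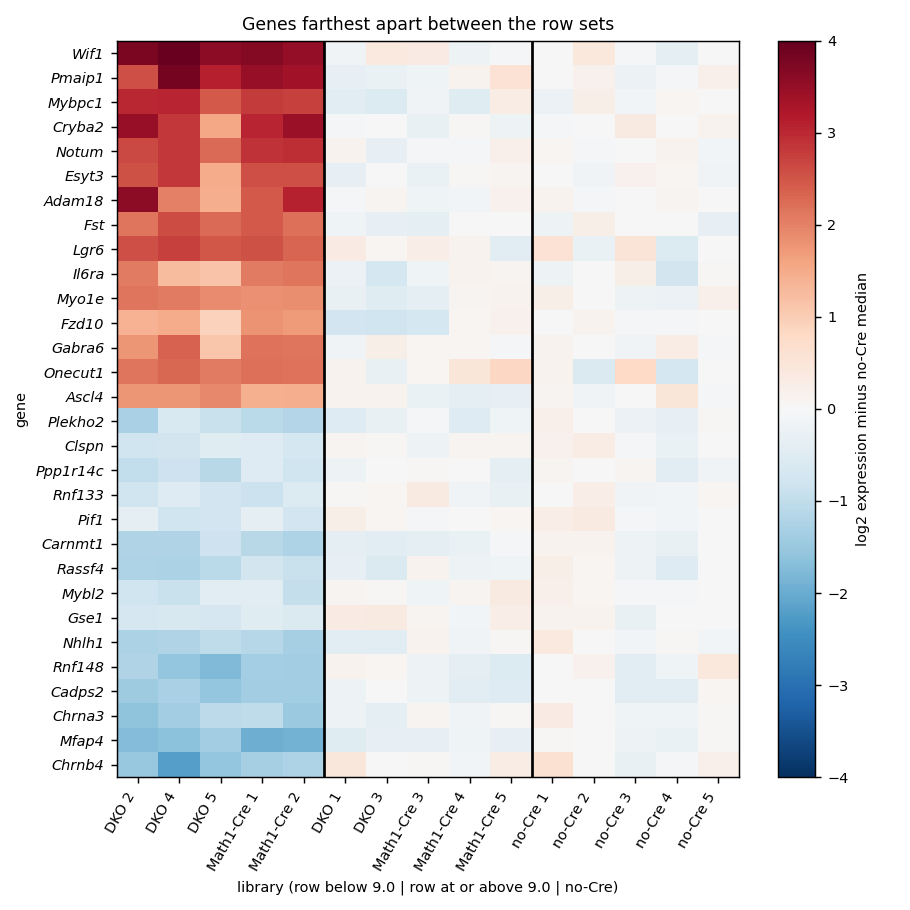
Log2 expression minus the median of the 5 no-Cre libraries for the 15 genes highest and the 15 genes lowest in the row-low libraries, with 1 column per library and vertical lines between the row-low, row-high and no-Cre libraries. The row-low columns are red in the upper rows and blue in the lower ones, while the row-high and no-Cre columns stay pale in nearly every cell; the genes were chosen for this difference.

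The difference appeared within each label. Among the 5 libraries labelled DKO, 126 genes (0.568%) separated DKO 2, 4 and 5 from DKO 1 and 3 with medians at least 1 apart, 90 higher (0.406%) and 36 lower (0.162%). Among the 5 labelled Math1-Cre, 90 genes (0.406%) separated Math1-Cre 1 and 2 from Math1-Cre 3, 4 and 5, 71 higher (0.32%) and 19 lower (0.0857%). These comparisons share no library. They had 46 genes in common, 36.5% of the first list and 51.1% of the second, of which 42 were higher, 4 lower and 0 opposite in direction. Wif1 differed by 3.65 within DKO and 3.62 within Math1-Cre, and Pmaip1 by 3.39 and 3.31. Xist, which lay low in DKO 2, DKO 3 and Math1-Cre 2, was higher in the row-low libraries within DKO and lower within Math1-Cre. Y-linked genes were expressed in Math1-Cre 1 and 2 and not in Math1-Cre 3, 4 and 5. Within that label the row and Y-linked expression therefore cannot be told apart. Within DKO, Y-linked genes were expressed in DKO 2, which is row-low, and in DKO 3, which is row-high.

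**Figure D4:**
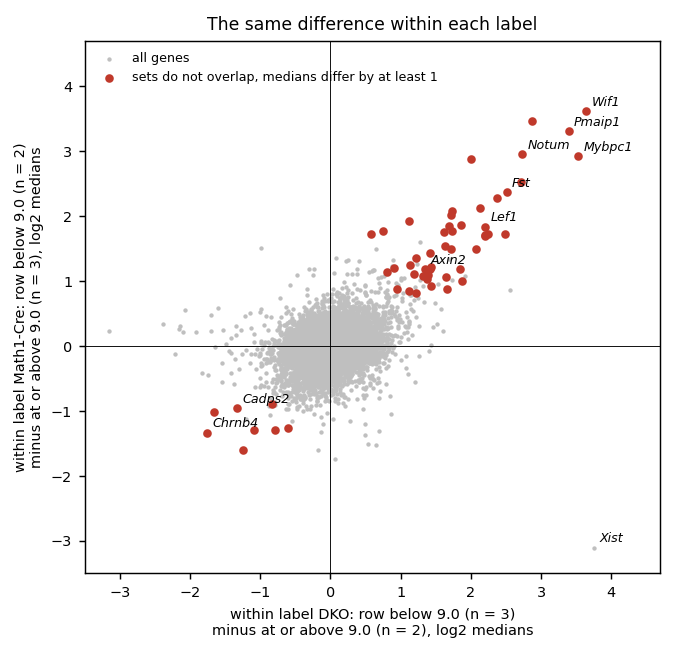
Difference of medians between row-low and row-high libraries, in log2 units, within the libraries labelled DKO on the horizontal axis (3 against 2) and within those labelled Math1-Cre on the vertical axis (2 against 3), with 1 point per gene inside the axis limits. The Y-linked genes Eif2s3y, Kdm5d and Uty lie beyond the upper limit of the vertical axis and are not drawn. The 56 genes that separate the sets, in red, must lie in the upper right or lower left because of how they were chosen, with Wif1 at 3.65 and 3.62; Xist, which differs with sex, lies at the lower right.

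Conversely, the labels mostly overlapped inside each set. Among the row-low libraries DKO 2, 4 and 5 overlapped Math1-Cre 1 and 2 in 44 of the 56 genes and did not in 12. Among the row-high libraries DKO 1 and 3 overlapped Math1-Cre 3, 4 and 5 in 40 and did not in 16. Over all genes, labels did not overlap in 6877 genes (31.0%) among the row-low libraries and in 8199 (37.0%) among the row-high libraries. The shares of 12 and 16 genes in 56 thus lay below those backgrounds, which is read only as a description since the genes were picked for tight sets. Of the 48 higher genes, DKO 5 was the lowest row-low library in 24 and Math1-Cre 5 the highest row-high library in 21.

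The list of WNT feedback and target genes held 27 genes, of which 26 were measured. In the row-low libraries 10 were higher without overlap and 1 was lower, against 0.987% and 1.8% of all genes, and the list's median difference was 0.63. The list was known to split when it was drawn up, and it is described here by role. Among secreted antagonists, Wif1 and Notum did not overlap, and Dkk1, an inhibitor of the LRP co-receptors, had a difference of 0.73 with overlap. Among receptors and their regulators, Lgr6, a receptor for R-spondins, was at 7.33, 7.49, 7.24, 7.30 and 7.07 in the row-low libraries. It was at 5.07, 4.84, 5.03, 4.90 and 4.31 in the row-high libraries, of which DKO 3 and Math1-Cre 5 were at background. Kremen1, which removes LRP co-receptors from the surface together with DKK proteins, differed by 0.66, Znrf3, a ubiquitin ligase for Frizzled receptors, by 0.64, and Apcdd1, a membrane inhibitor of WNT signalling, by 0.56. Lgr5, a relative of Lgr6, differed by -0.22 with overlap.

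Inside the cell, Nkd1, an inhibitor that binds Dishevelled, differed by 1.25, and Axin2 has been given above. Sp5, a transcription factor of the SP family and a direct target of the pathway, was at 8.62, 8.58, 8.19, 8.42 and 8.18 in the row-low libraries and at 6.71, 6.29, 6.42, 6.82 and 6.80 in the row-high libraries. Its difference of 1.71 compares with no-Cre levels of 6.64 to 7.13. The member that lay lower was Ccnd1, the gene of cyclin D1, at 8.38, 8.78, 8.66, 8.54 and 8.44 in the row-low libraries and 9.19, 9.41, 9.02, 8.98 and 9.18 in the row-high libraries. Bmp4, a ligand of bone morphogenetic protein receptors, differed by 1.52 with overlap. Outside the list, 3 more genes of the pathway or its edge were chosen after their values were seen: the receptor gene Fzd10 differed by 2.17, the ligand gene Wnt10a by 1.07 and Sostdc1, a secreted antagonist of BMP and WNT signalling, by 1.95. Wnt10a was at background in all 5 row-high libraries and 1 row-low library, and Fzd10 in 3 row-high libraries, so their differences may be compressed. Sostdc1 was at 10.41, 10.30, 10.23, 10.36 and 10.35 in the row-low libraries against 8.40, 7.72, 7.92, 8.63 and 9.27 in the row-high libraries, again with Math1-Cre 5 the nearest.

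The promoter windows of these genes were searched for the core of the TCF and LEF binding motif, because the list names feedback and target genes of the pathway. Whether those factors act on each member was not tested. The letters were CTTTGAT and CTTTGAA on both strands, in windows of 300 bases from 250 before to 50 after a RefSeq start on GRCm38.p6. Of the 10 higher WNT genes, 6 had windows, 9 in all, and 1 window held a match. Over all genes 8.7% of 32851 windows held a match, and over the measured genes 7.6% did. Among the 30 genes with windows of the 48 higher ones, 4 of 35 windows (11.4%) did. The matching window is that of Sp5, on the plus strand at chr2:70474673-70474972, shown with its match in capitals, 104 bases before the start. No match in the other windows says only that these letters are not there.
Sp5: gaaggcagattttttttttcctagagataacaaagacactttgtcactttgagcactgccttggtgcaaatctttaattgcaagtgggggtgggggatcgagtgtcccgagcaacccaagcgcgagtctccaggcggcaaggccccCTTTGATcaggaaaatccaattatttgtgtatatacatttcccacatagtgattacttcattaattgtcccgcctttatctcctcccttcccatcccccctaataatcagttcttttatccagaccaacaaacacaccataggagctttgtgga

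The destruction complex and beta-catenin list held 20 genes, with 19 measured, and 0 higher and 1 lower without overlap, beside 0.987% and 1.8% of all genes. The 1 was Apc, a scaffold of the complex, at a difference of -0.11 that overlapped after centring, and the list's median was -0.03, close to that of all genes. Tcf7l2, a nuclear partner of beta-catenin, differed by -0.99 but overlapped.

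Pmaip1 is a target of the tumour suppressor p53, and other targets were looked at beside it. Of 24 listed, 22 were measured, and 2 were higher without overlap and 0 lower, beside 0.987% and 1.8% of all genes, with a list median of 0.01. The other was Cdkn1a, which encodes the cyclin-dependent kinase inhibitor p21, at 11.08, 10.95, 10.86, 10.87 and 10.93 in the row-low libraries and 9.56, 9.59, 9.93, 9.76 and 9.63 in the row-high libraries. The no-Cre libraries lay at 9.54 to 9.91 in Cdkn1a. Mdm2, the ubiquitin ligase that limits p53, differed by -0.01 and Bbc3, which encodes the BH3-only protein PUMA, by -0.15, both with overlap. In the BCL2 family list, 17 of 19 were measured and 2 were higher against the same 0.987%, Pmaip1 and Hrk, another BH3-only gene, with a difference of 0.32. Among the 7 cyclin-dependent kinase inhibitors, Cdkn1a alone did not overlap. Gadd45g, a stress response gene chosen after its values were seen, differed by 1.42.

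Beyond WNT genes, the 15 highest genes held products of varied kinds. Mybpc1, a myosin-binding protein first known from slow muscle, was at 9.61, 9.64, 9.04, 9.41 and 9.34 in the row-low libraries and at 6.13, 6.03, 6.45, 6.10 and 6.87 in the row-high libraries, a difference of 3.27. The no-Cre libraries ranged from 6.34 to 6.83. Fst, which encodes the activin antagonist follistatin, was at 7.92, 8.37, 8.02, 8.23 and 7.98 against 5.58, 5.45, 5.40, 5.74 and 5.79, a difference of 2.44. Neither gene was at background in any library. Myo1e, a class I myosin, differed by 2.18, Onecut1, a homeodomain transcription factor, by 2.03, and Il6ra, a subunit of the interleukin-6 receptor, by 2.25. Onecut1 and Il6ra were each at background in the row-high library DKO 3. Another 5 of the 15 were at background in every row-high library: Cryba2, a crystallin gene, with a difference of 3.13, Esyt3, an extended synaptotagmin, with 2.56, Adam18 with 2.54, Gabra6 with 2.06 and Ascl4 with 2.02. Cryba2 and Wnt10a are neighbours in the genome. DKO 5 was the lowest row-low library in Cryba2, at 4.98, in Esyt3, at 5.18, and in Adam18, at 5.02. Its levels of Cryba2 and Adam18 were at background.

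Gabra6 encodes the alpha 6 subunit of the GABA-A receptor, a product of mature granule neurons. It was at 5.42, 6.02, 4.76 (DKO 5, at background), 5.83 and 5.78 in the row-low libraries and between 3.51 and 3.86 in the row-high libraries. Of 26 genes in the granule neuron differentiation list, all measured, Gabra6 alone was higher without overlap and 5 were lower, beside 0.987% and 1.8% of all genes. The list median was -0.16, and 5 members had the higher median in the row-low libraries. The lower ones were Cadps2, the glutamate receptor subunit gene Grin2c (-0.75), the adhesion gene Cntn2 (-0.36), Reln (-0.35), which encodes the secreted guidance protein reelin, and the transcription factor gene Neurod2 (-0.18). Cntn2 overlapped after quantile normalization and after centring. The counts of this list depended on the scaling. After quantile normalization 3 members were higher and 4 lower without overlap, and after centring 2 and 3. All row-low levels of Grin2c were at background, and its second row differed by 0.10 the other way with overlap.

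The lower genes were led by subunits of nicotinic acetylcholine receptors. Chrnb4, the beta 4 subunit, was at 5.57, 4.85 (DKO 4, at background), 5.53, 5.75 and 5.82 in the row-low libraries and at 7.54, 7.04, 7.12, 6.98 and 7.38 in the row-high libraries, a difference of -1.55. Chrna3, the alpha 3 subunit that pairs with it, was at 8.26, 8.47, 8.79, 8.83 and 8.36 against 9.66, 9.47, 9.97, 9.73 and 9.89, a difference of -1.26. Both separated the sets, and the no-Cre libraries lay with the row-high ones, at 6.78 to 7.68 and 9.70 to 10.19. They are neighbouring genes in the cluster that also holds Chrna5, which differed by -0.29 with overlap. Over the 16 nicotinic subunit genes measured, 2 were lower and Chrna4 was higher by 0.32, beside 1.8% and 0.987% of all genes, and the median difference was 0.02. Of the 16, 10 were at background on every array.

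Cadps2, a regulator of dense-core vesicle release in granule neurons, was at 7.74, 7.85, 7.62, 7.76 and 7.77 in the row-low libraries and at 8.96, 9.18, 8.98, 8.72 and 8.66 in the row-high libraries. Its difference was -1.20. Rnf148 and Rnf133, genes of RING finger proteins, differed by -1.18 and -0.82; both lie inside Cadps2 in the GRCm38.p6 gene table, and signals of nested genes on an array may not be separate. Rnf148 was at background in all 5 row-low libraries. Mfap4, a protein of extracellular microfibrils, was at 6.56, 6.66, 6.90, 6.37 and 6.42 against 7.82, 7.98, 7.97, 8.15 and 7.99, a difference of -1.42. Smaller differences were found for Gse1, a chromatin-associated protein (-0.90), Rassf4 of the Ras-association family (-0.87), the methyltransferase gene Carnmt1 (-0.85), Ppp1r14c, an inhibitor of protein phosphatase 1 (-0.80), and Plekho2 (-0.79), which overlapped after quantile normalization and after centring on array medians. The remaining 3 of the 15 lowest, Mybl2 (-0.88), Pif1 (-0.82) and Clspn (-0.79), are genes of the cell cycle and of DNA replication. Clspn was at background in 4 row-low libraries and Pif1 in 2. Mybl2 overlapped when its rows were averaged, and Pif1 is a neighbour of Plekho2. A second row of Ppp1r14c, at a lower signal, differed by -0.08 with overlap.

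Genes of cell division lay lower in the row-low libraries as groups. The mitosis list held 32 genes, of which 31 were measured. Of these, 0 were higher and 9 lower without overlap, beside 1.8% of all genes lower, and all 31 had the lower median in the row-low libraries, with a list median of -0.46. The mean of the list ranged from 7.18 to 7.64 in the row-low libraries and from 7.60 to 8.09 in the row-high libraries. These ranges overlapped. In the no-Cre libraries the list mean ranged from 7.84 to 8.22. Mki67, the proliferation marker Ki-67, was at 8.57, 8.78, 9.01, 8.69 and 8.79 against 9.17, 9.42, 9.21, 9.36 and 9.71, a difference of -0.58. Top2a, the topoisomerase of dividing cells, differed by -0.61, the spindle checkpoint kinase gene Bub1b by -0.56, Birc5, which encodes survivin, by -0.55 and the spindle factor gene Tpx2 by -0.49. Within DKO the list median was -0.21 and within Math1-Cre it was -0.57. Spag5 and Fam83d, both of the mitotic spindle, were the only members of any list to pass the limma test of the labels and were picked out for that after their values were seen. They fell by 0.40 (adjusted p = 0.0487) and 0.65 (adjusted p = 0.0434) in the libraries labelled DKO. Of 19 other settings of that limma fit, Spag5 passed in 5 and Fam83d in 4. Without Math1-Cre 1 both had an adjusted p of 0.0854, and with the replicate number as a block 0.0984 and 0.064.

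DNA replication and G1/S genes followed the same direction. Of 28 listed, 26 were measured, with 0 higher and 9 lower without overlap, beside 0.987% and 1.8% of all genes. Of the 26, 25 had the lower median, and the list median was -0.43. Mcm3, a subunit of the replicative helicase, was at 6.70, 6.73, 7.21, 7.06 and 6.58 in the row-low libraries and at 7.57, 7.29, 7.38, 7.44 and 7.51 in the row-high libraries. Tyms, which makes thymidylate, differed by -0.69, the transcription factor gene E2f2 by -0.63, Rrm2, a subunit of ribonucleotide reductase, by -0.57 and the replication licensing gene Cdc6 by -0.53. E2f2 was at background in 4 row-low libraries and 1 row-high library. A second row of Rrm2, at a lower signal, differed by -0.09 with overlap. The list mean ranged from 7.05 to 7.40 in the row-low libraries and from 7.50 to 7.72 in the row-high libraries, without overlap. The counts of members depended on the scaling and on the libraries kept: Tpx2, Tyms and Rrm2 overlapped after either rescaling below, and E2f2 after the first. After quantile normalization 7 mitosis and 5 replication genes did not overlap, and after centring on array medians 7 and 6. Without the 4 arrays of narrowest spread the counts were 26 and 21, and without the replicate-5 libraries 18 and 16. With fewer libraries overlap is also less likely. The share of all genes without overlap is not given for any of these settings, so whether these counts stand out cannot be judged. The list medians stayed negative under each of these settings, between -0.40 and -0.57.

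Promoters of these genes were searched for the core letters of the E2F motif, TTTCCCGC, TTTGGCGC, TTTGCCGC and TTTCGCGC on both strands, because E2F factors are the known regulators of the G1/S set. Of the 18 mitosis and replication genes that lay lower, 14 had windows, 16 in all, and 4 windows (25.0%) held a match, those of Mcm3, Mcm6, Cdc6 and E2f2. Over all genes with RefSeq windows 2.3% of windows did, and over the measured genes 2.9%. The G1/S genes were listed and searched as known E2F targets, and the windows of other list members were not counted apart. The share therefore says nothing of which members lay lower. A match is a description of letters and not of binding. The windows of Mcm3, on the minus strand at chr1:20820263-20820562 with matches 19 and 38 bases after the start, and of Cdc6, on the plus strand at chr11:98907901-98908200 with a match 138 bases before the start, show the motif on either strand, in capitals. In Mcm3 the first match and in Cdc6 the only match read GCGGGAAA, the reverse complement of TTTCCCGC.
Mcm3: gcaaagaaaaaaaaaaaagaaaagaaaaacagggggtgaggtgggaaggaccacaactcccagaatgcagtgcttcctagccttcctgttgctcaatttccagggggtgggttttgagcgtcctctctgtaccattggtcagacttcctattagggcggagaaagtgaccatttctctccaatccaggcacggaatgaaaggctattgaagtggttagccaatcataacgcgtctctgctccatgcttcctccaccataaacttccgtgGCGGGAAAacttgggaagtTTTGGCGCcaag
Cdc6: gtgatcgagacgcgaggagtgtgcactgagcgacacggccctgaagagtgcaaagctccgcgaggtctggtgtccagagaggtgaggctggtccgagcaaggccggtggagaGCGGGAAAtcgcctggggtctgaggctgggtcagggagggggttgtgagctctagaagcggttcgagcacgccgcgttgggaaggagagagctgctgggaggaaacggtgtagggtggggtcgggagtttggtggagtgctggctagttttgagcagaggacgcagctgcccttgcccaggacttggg

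Genes of granule neuron progenitors lay lower in part. Of 22 listed, 20 were measured, with 0 higher and 4 lower without overlap, beside 0.987% and 1.8% of all genes, and a list median of -0.14. Nhlh1, a basic helix-loop-helix factor, was at 7.29, 7.34, 7.56, 7.41 and 7.23 in the row-low libraries and at 8.13, 8.15, 8.68, 8.40 and 8.61 in the row-high libraries, a difference of -1.06. Mycn, the hedgehog-responsive Myc gene, differed by -0.65, Ccnd1 by -0.64 and the homeobox gene Barhl1 by -0.52. Atoh1 itself, whose promoter drives the Cre, was at 7.81, 8.57, 8.64, 8.34 and 8.03 in the row-low libraries and at 8.54, 8.57, 8.95, 8.95 and 9.09 in the row-high libraries. These sets overlapped: DKO 1 and DKO 3, at 8.54 and 8.57, lay within the row-low range. Without the 4 arrays of narrowest spread the sets did not overlap, with a difference of -0.91. The Atoh1 medians differed by 0.01 within DKO and by -0.76 within Math1-Cre. Pax6, Zic1 and Ptch1 overlapped at differences of -0.14, 0.03 and -0.04. The labelled comparison of Atoh1 gave -0.24 ± 0.20 (SE; limma adjusted p = 0.466).

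Other signalling lists held few members that separated the sets; over all genes 0.987% were higher and 1.8% lower without overlap. In the Notch pathway, with 20 measured, Hey1, a transcriptional effector, was lower by 0.58 and Numb by 0.06, while the ligand gene Dll1 was higher by 0.11; a second row of Dll1 differed by -0.17, so its direction depends on the row. Numb overlapped after both rescalings, and Dll1 after quantile normalization. Among 22 BMP and activin genes, Fst, Fstl4 (0.58) and Id1 (0.51) were higher and 0 were lower. Among 14 insulin-like growth factor genes, the binding protein gene Igfbp2 was higher by 0.74 and Igfbpl1 lower by 0.25. The receptor genes Erbb4 and Egfr were lower by 0.32 and 0.24 among 8 ERBB genes, and the guidance receptor gene Robo2 by 0.39 among 31 axon guidance and adhesion genes. Egfr overlapped after both rescalings, and Robo2 after centring. In the immediate early list, with 14 measured, Dusp1 was higher by 0.43 and Atf3 by 0.40, the latter at background throughout. In the glycogen metabolism list, with 12 measured, and the NRF2 target list, with 13, 0 genes did not overlap.

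Markers of other cells of the cerebellum and its surroundings mostly overlapped between the sets, as did genes at large, of which 2.79% did not overlap. Lists of this size with no such member therefore lie near the share of all genes. None of the measured markers of Purkinje cells (10), GABAergic interneurons (8), astrocytes and Bergmann glia (12), oligodendrocyte lineage (11), microglia (11), endothelium (11), pericytes and meninges (12), choroid plexus and ependyma (8) or brainstem (19) separated them. Among 6 markers of unipolar brush cells and nuclei, Meis2 was lower by 0.33 and the list median was -0.30. The choroid plexus and ependymal list had the highest median of these lists with several measured genes, 0.33. All 8 measured members had the higher median in the row-low libraries, with overlap. Its list means ranged from 7.52 to 8.10 in the row-low and from 7.14 to 8.24 in the row-high libraries. The brainstem list ranged from 4.08 to 4.49 and from 3.63 to 4.91. A single erythroid marker was measured, and it overlapped. The part of cell composition in the differences was not tested.

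**Figure D5:**
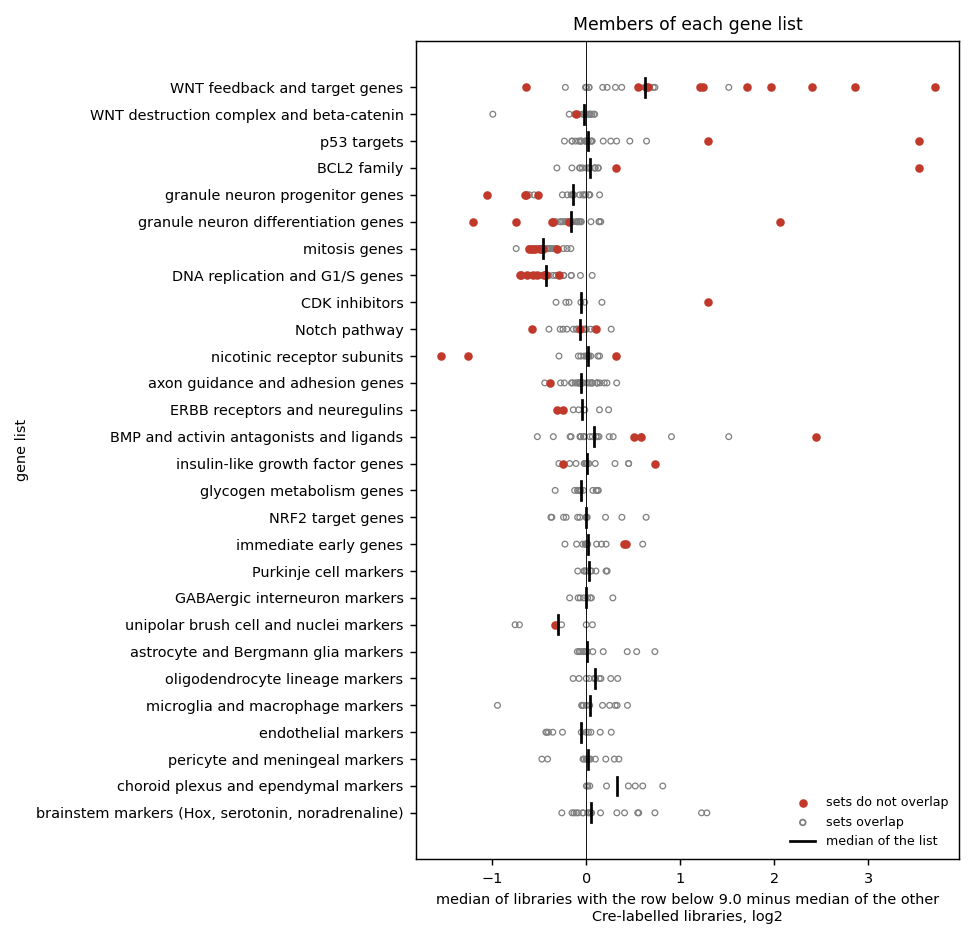
Difference of medians, row-low minus row-high libraries, in log2 units, for each measured member of 28 gene lists, with 1 row of points per list; filled red points are genes whose sets do not overlap, open points overlap, and the thick bar is the list's median. The WNT feedback list reaches 3.70 with a median of 0.63, and the mitosis list lies wholly below 0. Apart from the granule neuron lists, which hold several filled points, the cell type lists hold 1 filled point, Meis2. Over all genes 2.79% did not overlap.

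Replicate number 5 gives a comparison inside the libraries that share a code, DKO 5 minus Math1-Cre 5, with 1 library on each side and no test. Wif1 differed by 3.61, Pmaip1 by 2.51, Notum by 2.08, Lef1 by 1.33 and Axin2 by 1.06. These genes were chosen with both libraries in the sets, so their direction in this pair is fixed by the choice. Over all genes 249 (1.12%) were at least 1 higher and 133 (0.6%) at least 1 lower. Without the replicate-5 libraries 72 genes separated the remaining sets, 53 of the 56 among them.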

How the data were processed

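The deposited values are log2 expression on Affymetrix Mouse Gene 2.1 ST arrays, made by the authors with RMA, Partek 6.6 and build mm9 per the submitters' processing notes. The sources used here do not give their order and settings. The platform annotation gave 1 gene symbol to 23521 of 41345 rows, several to 1814 and none to 16010. Those with 1 were used; 23328 matched the GRCm38.p6 gene table. There, the row with the highest mean stood for each of 1082 genes with several rows, which left 22180 genes. The row annotated to Gsk3a has 2 symbols and forms the sets only.

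The members, sets and gene lists were chosen with earlier results of these data known, in which the split of WNT genes had been noticed before the row was looked up. WNT genes and Pmaip1 are thus no independent support. For the sets, a gene was counted when the 5 row-low and 5 row-high libraries did not overlap and their medians differed by at least 1 log2 unit, without a test. The labelled comparison was fitted with limma 3.58.1 (R 4.3.3) on all 15 libraries, with a mean per label group, eBayes, two-sided p-values and Benjamini-Hochberg adjustment over 22180 genes, at a threshold of 0.05. It was tested on simulated data. Same-numbered libraries had correlations of their deviations from -0.26 to 0.299, so the numbers were not taken as pairs. Depth is not defined for arrays; their number limits the precision.

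The genes named were Gsk3b, Ctnnb1, Atoh1, Mki67 and the markers; the 15 highest and 15 lowest genes whose sets do not overlap, passing over unnamed, predicted and noncoding transcripts; and up to 5 members of each of 29 lists whose sets do not overlap, by size of the difference. Alternatives were a low-level filter at the 30th percentile, quantile normalization, centring, trend and robust moderation, only the labels compared, a replicate block, mean rows, array spread as a covariate, minimum differences of 0.5 and 2, and leaving out libraries. Leaving out the 4 arrays of narrowest spread, and keeping only libraries without Y-linked expression, were added after the data were seen. Promoter sequences are RefSeq's, on GRCm38.p6. Python 3.11.15 and matplotlib 3.10.9 were used.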

Additional observations from a re-analysis of the deposited data

Results flagged for a closer look

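In groups of 5 libraries with the same label, a library was looked at again where its gap to the nearest of the others was large for the range of the group. Of 207 combinations of a named gene and a label group, 4 met this, and chance alone marks about 1 group in 20. Atoh1 was lowest in DKO 2, at 7.81, with the other libraries labelled DKO at 8.54 to 8.65. Dll1 was highest in Math1-Cre 2, at 6.44, with the other libraries of that label at 5.99 to 6.09. Robo2 was highest in Math1-Cre 5, at 10.86, with the others at 10.45 to 10.56. Igfbp2 was lowest in no-Cre 5, at 8.35, with the others at 8.74 to 8.84.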

How the results depend on the processing

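The labelled comparison passed 122 genes with limma, 29 higher and 93 lower in DKO. It passed 20 after quantile normalization (11 higher, 9 lower), 23 after centring on array medians (20 higher, 3 lower), 236 with trend and robust moderation, 1 with array spread as a covariate and 1 without the replicate-5 libraries. With the replicate number as a block it passed 0, with 4892 genes at an unadjusted p under 0.05. Leaving out single libraries gave 0 to 402: 17 without DKO 1, 80 without DKO 2, 1 without DKO 3, 32 without DKO 4, 402 without DKO 5, 0 without Math1-Cre 1 (4618 unadjusted), 1 without Math1-Cre 2, 1 without Math1-Cre 3, 2 without Math1-Cre 4 and 4 without Math1-Cre 5. The cause was not tested. None of the 56 genes that separate the sets passed under any of these settings, an outcome largely fixed by how they were chosen.

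The count of 56 was 52 to 64 without single libraries, 213 at a minimum difference of 0.5 and 16 at 2. With only libraries without Y-linked expression, 2 row-low and 4 row-high, it was 189, 47 of the 56 among them; so few libraries overlap less often. After quantile normalization it was 52 and after centring 51, and in each case 9 of the 66 named genes that separate the sets overlapped. Dll1 turned to -0.067 with the mean of its rows.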

Other observations

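Rows of the array without a single gene symbol were left out of the counts of genes. Of 17824 such rows, 9 separated the row-low from the row-high libraries by at least 1, 7 higher and 2 lower, and 1 of the lower is the row that formed the sets. A row shared by the immunoglobulin kappa segments Igkv4-53, Igkj1 and Igkv6-23 had a difference of 4.15, with all 5 row-high libraries at background, where differences are compressed. It read 7.74, 8.56, 5.60, 7.65 and 7.59 in the row-low libraries DKO 2, DKO 4, DKO 5, Math1-Cre 1 and Math1-Cre 2. It read 3.35, 3.29, 3.50, 3.84 and 4.35 in the row-high libraries DKO 1, DKO 3, Math1-Cre 3, Math1-Cre 4 and Math1-Cre 5, and 4.74, 4.45, 3.54, 3.45 and 3.85 in the no-Cre libraries. As in many of the higher genes, DKO 5 was the lowest row-low library and Math1-Cre 5 the highest row-high library.

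A row shared by Gadd45a, a gene of the response to DNA damage, and E230016M11Rik had a difference of 1.62. It read 6.41, 7.58, 7.00, 7.29 and 7.02 in the row-low libraries and 5.34, 5.28, 5.53, 5.40 and 5.96 in the row-high libraries. Rows shared by Zfp704 and C030034L19Rik and by Glyctk and D030055H07Rik had differences of 1.60 and 1.03. These rows were looked at after their values were seen, and which of the symbols on a row gave its signal cannot be read from the array.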
